A study of Mus musculus with 12 samples.

Results

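The 8 genes described here are Umod, Egf, Slc12a1, Kcnj1, Bsnd, Cldn16, Cldn19 and Sostdc1, a set that marks the thick ascending limb of the loop of Henle. They were selected by name, from a list of known identity genes of that segment, among the 52636 genes of a table of FPKM, a read level corrected for gene length and library depth. All 8 were found once each and all 8 passed the expression minimum, which asks for 1 FPKM or more in 3 or more of the 12 libraries. The libraries came from kidneys of C57BL/6 males, wild type and 8 weeks of age. There were 4 groups with 3 libraries each, and the labels name no region of the kidney. The series title concerns the pregnane X receptor (PXR) and acute kidney injury caused by cisplatin, a platinum drug that is toxic to the renal tubule.

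Control mice received corn oil by gavage and saline. PCN mice received pregnenolone carbonitrile, a synthetic PXR agonist effective in rodents, at 40 mg/kg daily by gavage, with saline. Cisplatin mice received corn oil and 1 intraperitoneal dose of 20 mg/kg cisplatin, and cisplatin+PCN mice received both drugs. Gavage ran for 4 days before cisplatin and 3 days after it, and kidneys were collected on day 4 from the cisplatin dose. The treatment text lists the cisplatin group once among the animals given PCN and once among those given oil, so the groups follow the library titles. The labels do not tie libraries to separate mice, so the tests measure the spread between libraries, which may be technical in part.

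The thick ascending limb reabsorbs sodium chloride without water, which dilutes the tubular fluid and builds the medullary osmotic gradient. Slc12a1 encodes the apical sodium, potassium and chloride cotransporter, Kcnj1 the apical potassium channel that returns potassium to the lumen, and Bsnd barttin, the subunit that chloride channels need at the basolateral membrane. Cldn16 and Cldn19 encode claudins of the tight junction through which calcium and magnesium pass between cells. Umod encodes uromodulin, the most abundant protein of normal urine, Egf encodes the precursor of epidermal growth factor, and Sostdc1 encodes a secreted antagonist of bone morphogenetic protein (BMP) and Wnt signalling. Several of the 8 are not exclusive to the segment: Egf is also made in the distal convoluted tubule, and Kcnj1 and Bsnd also in later parts of the nephron.

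All 8 genes are protein-coding, and their whole-gene spans in the deposited table are read as GRCm38, where GENCODE M21 places them identically. Umod (ENSMUSG00000030963) is on chromosome 7 from 119462711 to 119479282, Egf (ENSMUSG00000028017) on chromosome 3 from 129677565 to 129755316, and Sostdc1 (ENSMUSG00000036169) on chromosome 12 from 36314139 to 36318452. Slc12a1 (ENSMUSG00000027202) is on chromosome 2 from 125152505 to 125230002, Kcnj1 (ENSMUSG00000041248) on chromosome 9 from 32372493 to 32399197, and Bsnd (ENSMUSG00000025418) on chromosome 4 from 106483456 to 106492283. Cldn16 (ENSMUSG00000038148) is on chromosome 16 from 26463135 to 26482765 and Cldn19 (ENSMUSG00000066058) on chromosome 4 from 119255414 to 119262438. Antisense genes overlap Umod, Egf, Slc12a1 and Cldn19 in the table, the highest of them, Gm12927 at Cldn19, reaching 2.47 FPKM. A miRNA gene on the same strand as Egf, Gm24515, overlaps Egf and reached 7.38 FPKM. Reads of overlapping genes cannot be told apart where the strand is the same or not known.

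Promoter windows of 3 members are shown because their transcripts behaved differently after cisplatin: Umod kept most of its level, Slc12a1 lost more than 1 log2 unit and Egf nearly all. Each window runs from 250 bases before to 50 bases after a RefSeq gene start (GRCm38.p6), is read 5′ to 3′ on the gene's own strand, and is in lower case with capitals marking any match to the motif searched. The windows are chr7:119479213-119479512 on the minus strand for Umod, chr2:125152350-125152649 on the plus strand for Slc12a1, and chr3:129755273-129755572 on the minus strand for Egf.
Umod: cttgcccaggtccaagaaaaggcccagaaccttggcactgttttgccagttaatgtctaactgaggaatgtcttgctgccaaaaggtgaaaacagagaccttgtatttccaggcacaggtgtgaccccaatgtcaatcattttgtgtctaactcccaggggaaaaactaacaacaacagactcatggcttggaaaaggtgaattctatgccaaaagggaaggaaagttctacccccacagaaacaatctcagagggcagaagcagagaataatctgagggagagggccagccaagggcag
Slc12a1: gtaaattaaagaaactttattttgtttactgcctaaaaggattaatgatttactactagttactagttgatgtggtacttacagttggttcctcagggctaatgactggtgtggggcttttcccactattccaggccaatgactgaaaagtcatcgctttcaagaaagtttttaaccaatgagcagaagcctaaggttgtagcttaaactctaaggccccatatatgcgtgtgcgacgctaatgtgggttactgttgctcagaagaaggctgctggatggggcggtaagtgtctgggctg
Egf: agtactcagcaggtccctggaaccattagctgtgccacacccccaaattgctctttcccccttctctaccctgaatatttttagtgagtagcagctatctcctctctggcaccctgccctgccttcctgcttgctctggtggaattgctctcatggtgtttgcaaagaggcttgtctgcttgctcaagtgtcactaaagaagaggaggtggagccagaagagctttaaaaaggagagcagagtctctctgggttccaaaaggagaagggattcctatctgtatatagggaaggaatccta
The motif was AAGGTCA, the core site of the estrogen-related receptors, searched on both strands. RefSeq windows were matched by symbol for 6 of the 8 genes, in 8 windows, and not for Bsnd and Sostdc1. AAGGTCA was in 0 of these 8 windows and in 4.72% of all 32851 windows, so no capitals appear above, which says only that these letters are not in these windows.

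In control kidneys the levels, which FPKM gives per length of gene, covered more than 2 orders of magnitude. Umod stood highest at 1273 ± 145 FPKM (SD, n = 3 here and throughout), followed by Slc12a1 at 259 ± 56.01 and Egf at 155 ± 17.4. Kcnj1 (74.6 ± 3.50), Sostdc1 (56.03 ± 1.98) and Bsnd (24.4 ± 1.13) came next, and Cldn16 (10.1 ± 1.58) and Cldn19 (8.71 ± 0.534) were lowest. Only Cldn16 and Cldn19, neighbours in that order, had ranges that overlapped. Together the 8 genes took between 0.610% and 0.760% of the reads assigned to genes in control libraries, and Umod alone took 47.2% to 49.8% of their reads. The lowest read count of any of the 8 in a control library was 228, for Cldn16.

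Cisplatin lowered 6 of the 8 genes. Egf, Sostdc1, Bsnd, Kcnj1 and Slc12a1 lost most of their transcript, Umod stood at 73.6% of its control mean, and the claudin genes Cldn16 and Cldn19 did not pass the test. In limma's test, whose p-values are adjusted over all 13540 genes tested by the Benjamini-Hochberg method, 31.9% of all genes were called lower, 32% higher and 63.9% in either direction. The median log2 change of the 8 genes was -1.41, against 0.01 over all genes tested. The 6 genes called were the 6 in which all cisplatin libraries lay below all control libraries, which was so for 34.1% of all genes. In bulk tissue, fewer cells of a type and less RNA per cell cannot be told apart.

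**Figure D1:**
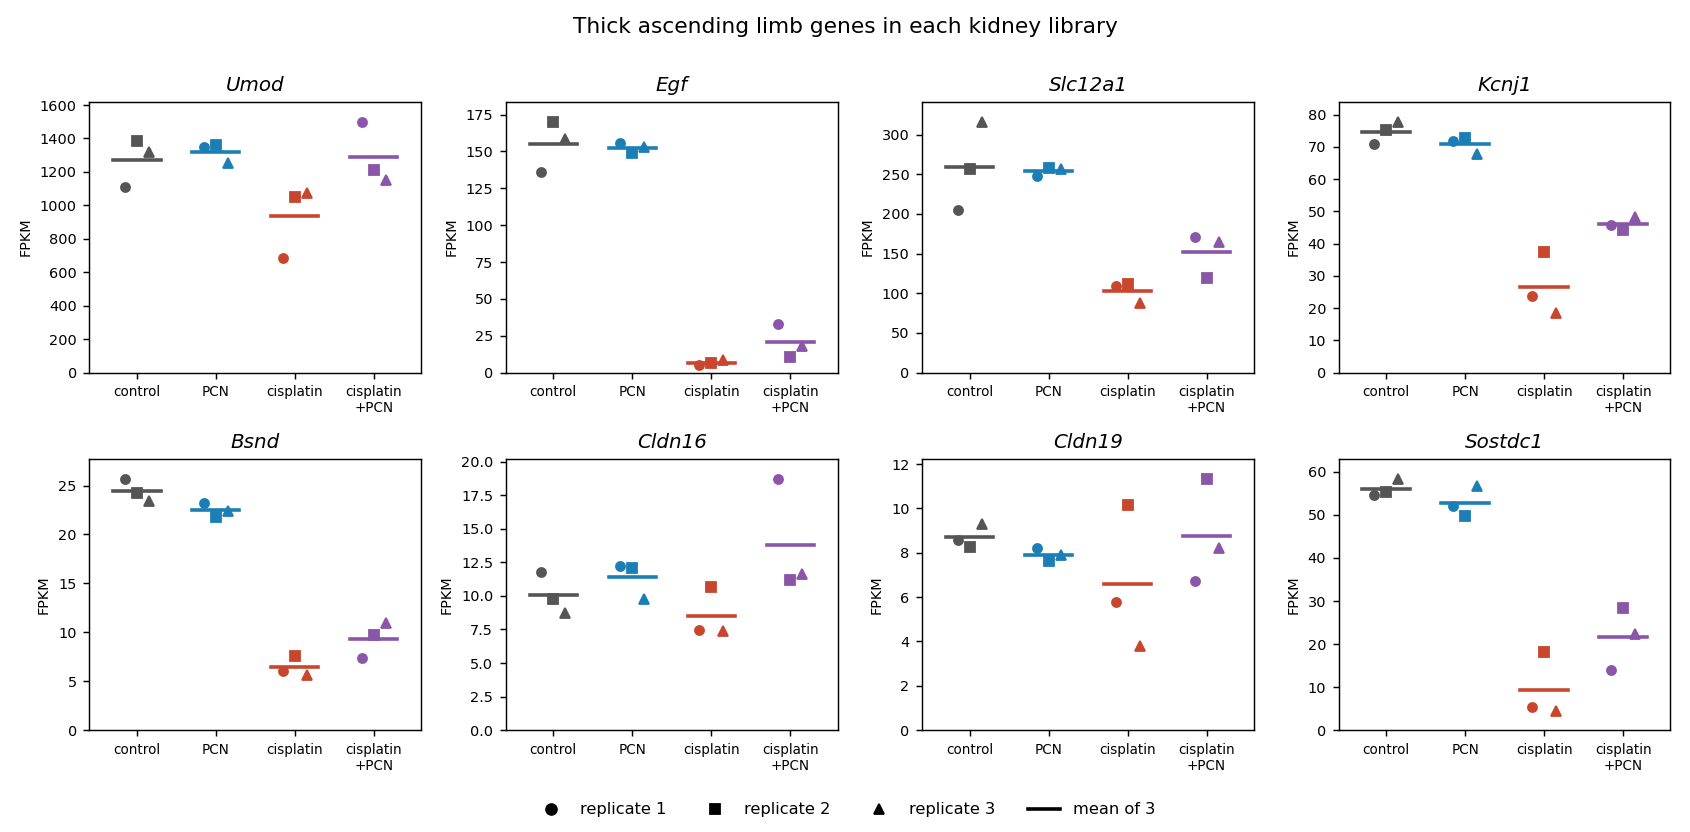
FPKM of each gene (vertical axes, linear and starting at 0) in each of 12 libraries by group, with marker shapes for replicates and a bar for the mean of 3. With cisplatin, Egf lies at or under 8.35 FPKM and Sostdc1 at or under 18.1, while 1 cisplatin value of Cldn16 lies within its control range and those of Cldn19 lie on both sides of its control range.

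The secreted products moved by very different amounts. Egf stood at 136, 170 and 159 FPKM in control replicates 1, 2 and 3, in which order all values here are given, and at 156, 149 and 153 with PCN. With cisplatin it stood at 4.95, 6.21 and 8.35 FPKM, and with cisplatin+PCN at 33.2, 10.6 and 17.8. Every library given cisplatin lay far below every library without it, and the cisplatin+PCN libraries all lay above the cisplatin libraries. Egf fell by 4.40 ± 0.31 with cisplatin (log2, SE; limma adjusted p = 7.04e-07), to 4.20% of the control mean, and only 21 of 13540 genes had a lower log2 change.

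Sostdc1 stood at 54.5, 55.3 and 58.3 FPKM in control and at 52.1, 49.7 and 56.6 with PCN. With cisplatin its values were 5.45, 18.1 and 4.35 FPKM, and with cisplatin+PCN 13.9, 28.4 and 22.4. Cisplatin replicate 2 stood apart, above the lowest cisplatin+PCN library, so these groups overlapped, while every library given cisplatin lay well below control. Sostdc1 fell by 2.71 ± 0.39 (adjusted p = 0.000129 in limma's test), to 16.6% of the control mean.

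Umod differed from both. Its control values were 1109, 1387 and 1322 FPKM, and its PCN values 1348, 1362 and 1255. With cisplatin it stood at 683, 1053 and 1075 FPKM, and with cisplatin+PCN at 1501, 1214 and 1152. The cisplatin libraries all lay below control, 2 of them by a small margin, and the cisplatin+PCN libraries overlapped the control range. Umod fell by 0.46 ± 0.17 with cisplatin (adjusted p = 0.0333 in limma's test). That call rested on single libraries, since the change became -0.25 (0.127) when cisplatin replicate 1 was left out, -0.40 (0.105) without control replicate 2 and -0.43 (0.0880) without control replicate 3. It was also lost with no expression minimum (0.116), with only the 6 libraries compared in the fit (0.0634) and with limma-voom on recovered reads (0.0586), and the change was -0.73 with array weights.

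All 3 genes of salt transport fell with cisplatin. Slc12a1 stood at 204, 257 and 316 FPKM in control, the widest relative spread of any member there (SD 21.6% of the mean), and at 248, 258 and 256 with PCN. With cisplatin it stood at 110, 111 and 88.3 FPKM, and with cisplatin+PCN at 172, 119 and 164. The PCN libraries lay inside the control range, and the cisplatin+PCN libraries lay between all cisplatin and all control libraries. Slc12a1 fell by 1.31 ± 0.17 with cisplatin (adjusted p = 5.96e-05 in limma's test).

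Kcnj1 stood at 70.8, 75.1 and 77.8 FPKM in control and at 71.9, 72.6 and 67.9 with PCN. With cisplatin it was 23.8, 37.3 and 18.4 FPKM, and with cisplatin+PCN 45.7, 44.2 and 48.4. Cisplatin replicate 2 was again the highest of its group, and the cisplatin+PCN values were close together, above all cisplatin and below all control values. Kcnj1 fell by 1.52 ± 0.18 with cisplatin (adjusted p = 3.54e-05 in limma's test).

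Bsnd stood at 25.6, 24.2 and 23.4 FPKM in control and at 23.2, 21.8 and 22.4 with PCN. With cisplatin it was 6.03, 7.60 and 5.67 FPKM, and with cisplatin+PCN 7.33, 9.72 and 10.9. Every library given cisplatin lay below every library without it, and the lowest cisplatin+PCN value lay under the highest cisplatin value. Bsnd fell by 1.78 ± 0.13 with cisplatin (adjusted p = 8.07e-07 in limma's test), with the smallest standard error of the 8 genes.

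The claudin genes showed no call. Cldn16 stood at 11.8, 9.79 and 8.69 FPKM in control and 12.3, 12.1 and 9.78 with PCN. With cisplatin it stood at 7.44, 10.7 and 7.42 FPKM, and with cisplatin+PCN at 18.7, 11.2 and 11.6. One cisplatin library lay inside the control range, and cisplatin+PCN replicate 1 was the highest of all 12. The change of Cldn16 with cisplatin was -0.23 (95% confidence interval -0.66 to 0.20, limma adjusted p = 0.319).

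Cldn19 stood at 8.58, 8.25 and 9.29 FPKM in control and 8.22, 7.62 and 7.92 with PCN. With cisplatin it was 5.80, 10.2 and 3.79 FPKM, and with cisplatin+PCN 6.71, 11.3 and 8.23. The cisplatin libraries lay on both sides of control, replicate 2 above it and replicates 1 and 3 below. The change of Cldn19 was -0.44 (95% confidence interval -0.998 to 0.11, adjusted p = 0.146 in limma's test), and a call appeared without cisplatin replicate 2 (-0.76, 0.00481) and with array weights (-0.53, 0.0115).

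The order of levels changed with these unequal falls. With cisplatin Umod, Slc12a1 and Kcnj1 were the highest in that order, without overlap between neighbours. Egf, below only Umod and Slc12a1 in control, stood at 6.50 ± 1.72 FPKM beside Cldn19 (6.58 ± 3.26) and Bsnd (6.44 ± 1.03), and from Sostdc1 (9.30 ± 7.65) downward each neighbour in the order overlapped the next. Umod then took 69.5% to 80.6% of the reads of the 8 genes, whose share of all assigned reads was 0.276% to 0.417%.

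Whether the members changed unequally within a kidney was tested on the log2 ratio of each gene to Slc12a1 in the same library, (FPKM + 1) over (FPKM + 1). The effect of cisplatin was the mean of its effects without and with PCN, and its two-sided p came from an exact permutation test of the labels within the libraries without and with PCN (400 arrangements, smallest possible p 0.005), adjusted over 7 ratios. Relative to Slc12a1, Umod was higher by 0.78 with cisplatin, Cldn16 by 1.03 and Cldn19 by 0.86 (exact adjusted p = 0.00875 for each). Each of these ratios was higher in 6 of 6 libraries given cisplatin than the mean of the matching group without it. Slc12a1 itself fell: only 4.81% of 13540 genes had a lower log2 change in cisplatin against control. In cisplatin+PCN against PCN, 7.25% had one. A gene with no change therefore rises in this ratio, and the share of all genes that would pass was not computed. A ratio of this kind shows unequal change, not that any 1 gene kept its level.

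In the other direction, the ratio of Egf to Slc12a1 changed by -2.65 (exact adjusted p = 0.00875) and that of Bsnd by -0.46 (exact adjusted p = 0.021), both lower in 6 of 6 libraries. Sostdc1 changed by -0.98 (exact adjusted p = 0.035), lower in 5 of 6 libraries, the exception being cisplatin+PCN replicate 2. This call was lost without cisplatin+PCN replicate 1 (0.0817) or 3 (0.0583), control replicate 1 (0.0875), 2 (0.0817) or 3 (0.0700), or PCN replicate 1 (0.0642) or 3 (0.0642), where fewer arrangements remain. For Kcnj1 the ratio differed by -0.03 (exact adjusted p = 0.825), by -0.21 without PCN and 0.15 with it. No difference between the changes of cotransporter and potassium channel was detectable, the ratios being -1.52, -1.76 and -2.01 in control and -2.16, -1.55 and -2.20 with cisplatin.

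**Figure D2:**
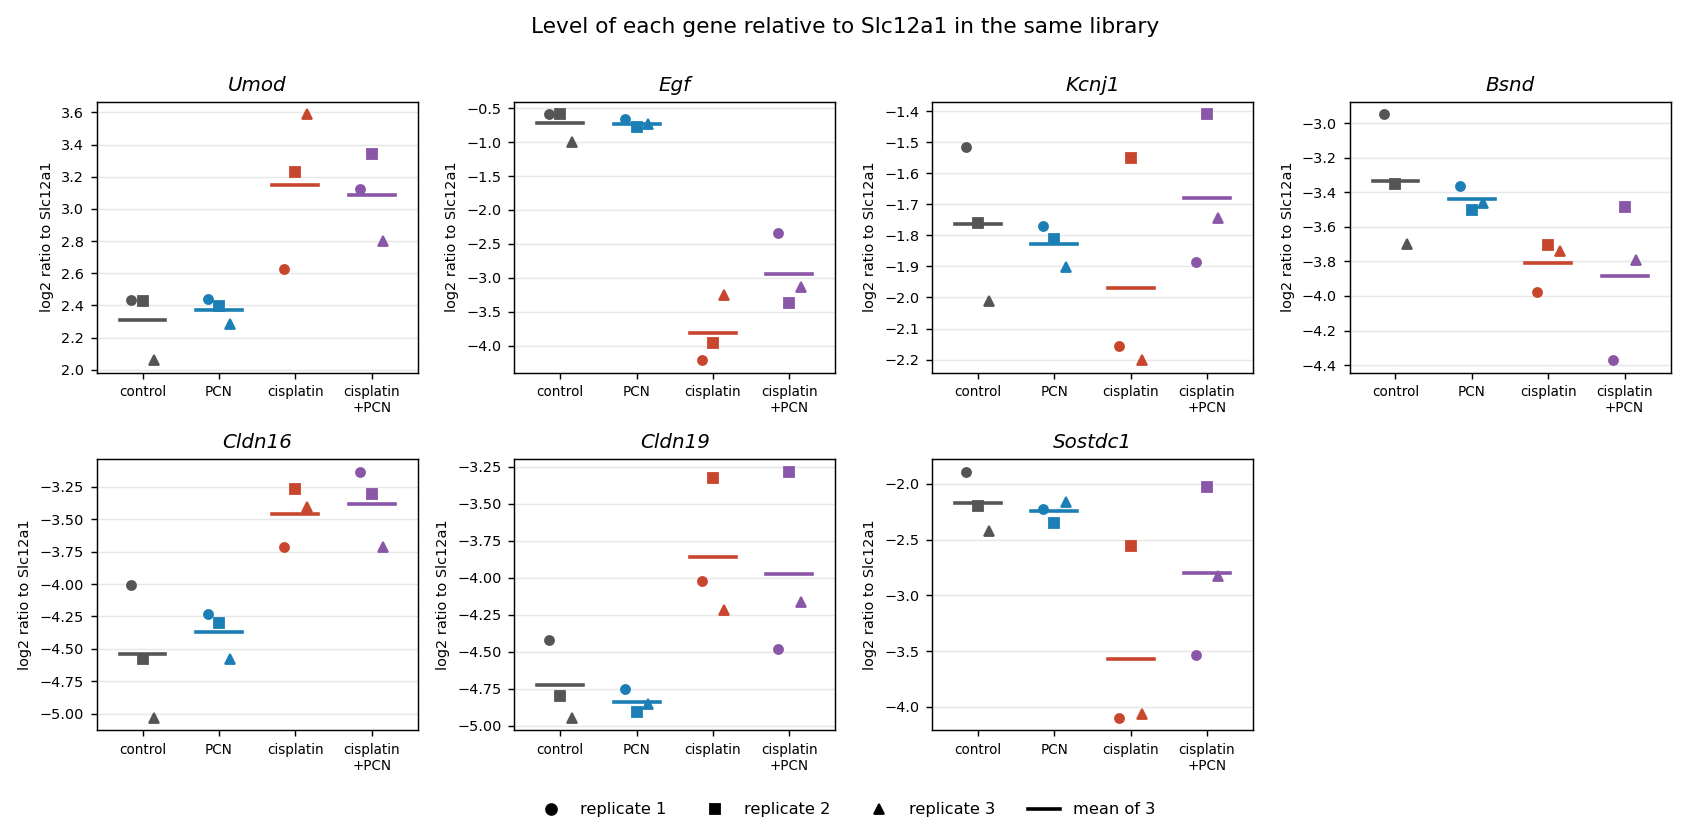
Log2 ratio of each gene to Slc12a1 in the same library (vertical axes, log2 scale, ranges differ between panels) by group, with marker shapes for replicates and a bar for the mean of 3. The mean ratios of Umod, Cldn16 and Cldn19 lie higher in both groups given cisplatin. For Cldn19 the libraries overlap, at -4.48 in cisplatin+PCN replicate 1 and -4.42 in control replicate 1. The ratio of Egf lies lower, from -4.22 to -2.33 against -0.99 to -0.58 without cisplatin, and that of Kcnj1 overlaps throughout.

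PCN given alone left no call on the 8 genes. By limma's test 0 of 8 passed (percentage of all genes called, 0%), 0 of 8 had an unadjusted p under 0.05 (3.23% of all genes), and 0 of 8 passed with limma-voom on recovered reads. Differences ran from -0.12 for Cldn19 to 0.16 for Cldn16, with a median of -0.04 (-0.0022 over all genes). Their 95% confidence intervals reached from -0.38 to 0.37 for Slc12a1 and from -0.95 to 0.78 for Sostdc1. These intervals use 1 spread for all 4 groups, and the libraries given cisplatin varied more. With only the 6 libraries compared in limma's fit, 1007 of 13540 genes had an unadjusted p under 0.05, against 438. After adjustment, 0 of the 8 and 0 of all genes passed there. Bsnd and Cldn19 were lower in all PCN libraries than in all control libraries, a separation found in 7.18% of all genes.

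Under PCN treatment, cisplatin lowered 5 of the 8 genes against PCN alone, where 23.4% of all genes were called lower (3178 higher and 3174 lower, or 3968 and 2437 by limma-voom). Egf fell by 2.98 ± 0.31 (adjusted p = 2.32e-05), Sostdc1 by 1.31 ± 0.39 (0.0185), Bsnd by 1.20 ± 0.13 (2.83e-05), Slc12a1 by 0.76 ± 0.17 (0.00401) and Kcnj1 by 0.61 ± 0.18 (0.0190), all in limma's test. Umod changed by -0.04 (0.848), Cldn16 by 0.23 (0.359) and Cldn19 by 0.10 (0.765), none of which passed. The call on Kcnj1 was lost without PCN replicate 1 (0.0509) or 2 (0.0533) or cisplatin+PCN replicate 2 (0.0535). That on Sostdc1 was lost without PCN replicate 3 (0.0541) or cisplatin+PCN replicate 1 (0.0646).

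The same 5 genes were lower with cisplatin+PCN than in control, where 23.6% of all genes were called lower (3110 higher and 3198 lower, or 3774 and 2495 by limma-voom). As means, Egf stood at 13.2% of control, Bsnd at 38.2%, Sostdc1 at 38.5%, Slc12a1 at 58.5% and Kcnj1 at 61.8%. Umod stood at 101% and Cldn19 at 101% of control, with log2 differences of 0.02 (limma adjusted p = 0.950) and -0.02 (0.957). Cldn16 stood at 137% (log2 difference 0.39, adjusted p = 0.123 in limma's test), and passed only with limma-voom on recovered reads (0.53, 0.0389). These values share the control libraries with the cisplatin comparison above.

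Against cisplatin alone, 4 of the 8 genes were higher with cisplatin+PCN, where 7.97% of all genes were called higher and 7.61% lower. Egf rose by 1.40 ± 0.31 (adjusted p = 0.0173), Sostdc1 by 1.32 ± 0.39 (0.0455), Kcnj1 by 0.83 ± 0.18 (0.0178) and Bsnd by 0.47 ± 0.13 (0.0342), all in limma's test. The other 4 had positive differences that did not pass, at 0.62 for Cldn16 (0.0535), 0.54 for Slc12a1 (0.0542), 0.48 for Umod (0.0800) and 0.42 for Cldn19 (0.265). The median over the 8 genes was 0.58, against 0 over all genes, and 7 of the 8 had an unadjusted p under 0.05 (32.7% of all genes). In 5 of the 8, namely Umod, Egf, Slc12a1, Kcnj1 and Cldn16, all cisplatin+PCN libraries lay above all cisplatin libraries, as in 14.8% of all genes.

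This count depended on which libraries were used, as did that of all genes. With only the 6 libraries compared in the fit, 0 of 8 passed (and 1 of 13540 genes), and with array weights 8 of 8 did (6862 of 13540, 3301 of them higher). It was 0 without cisplatin replicate 1 (774 of 13450 genes) and 7 without cisplatin replicate 2 (3365 of 13433). It was 1 without cisplatin replicate 3 (530 of 13407) and 0 without cisplatin+PCN replicate 3 (601 of 13487). It was 2 without control replicate 2, PCN replicate 2 or PCN replicate 3, which enter only through the shared estimate of spread, and 2 with no expression minimum. Over all genes, calls numbered 1563, 1505 and 1491 without those libraries and 1008 with no expression minimum. The difference of Sostdc1 ranged from 0.97 to 1.89 as single libraries were left out.

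Whether PCN changed the response to cisplatin was tested as an interaction. By limma's test 0 of the 8 genes passed, where 0.111% of all genes did, and 5 of 8 had an unadjusted p under 0.05 (19.3% of all genes). Those 5 were Kcnj1 (0.91 ± 0.26, adjusted p = 0.128), Egf (1.42 ± 0.43, 0.138), Bsnd (0.58 ± 0.18, 0.141), Sostdc1 (1.40 ± 0.56, 0.211) and Slc12a1 (0.55 ± 0.24, 0.246). By limma-voom on recovered reads 0 of the 8 passed, and 68 of 13540 genes did. With array weights 7 of the 8 passed, and 4315 of 13540 genes. Without cisplatin replicate 2 it was 3 of the 8 and 1057 of 13433 genes. Without cisplatin+PCN replicate 2 it was 1 of the 8 and 505 of 13454 genes. A difference in the cisplatin effect with and without PCN was therefore not established for any of the 8 genes.

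**Figure D3:**
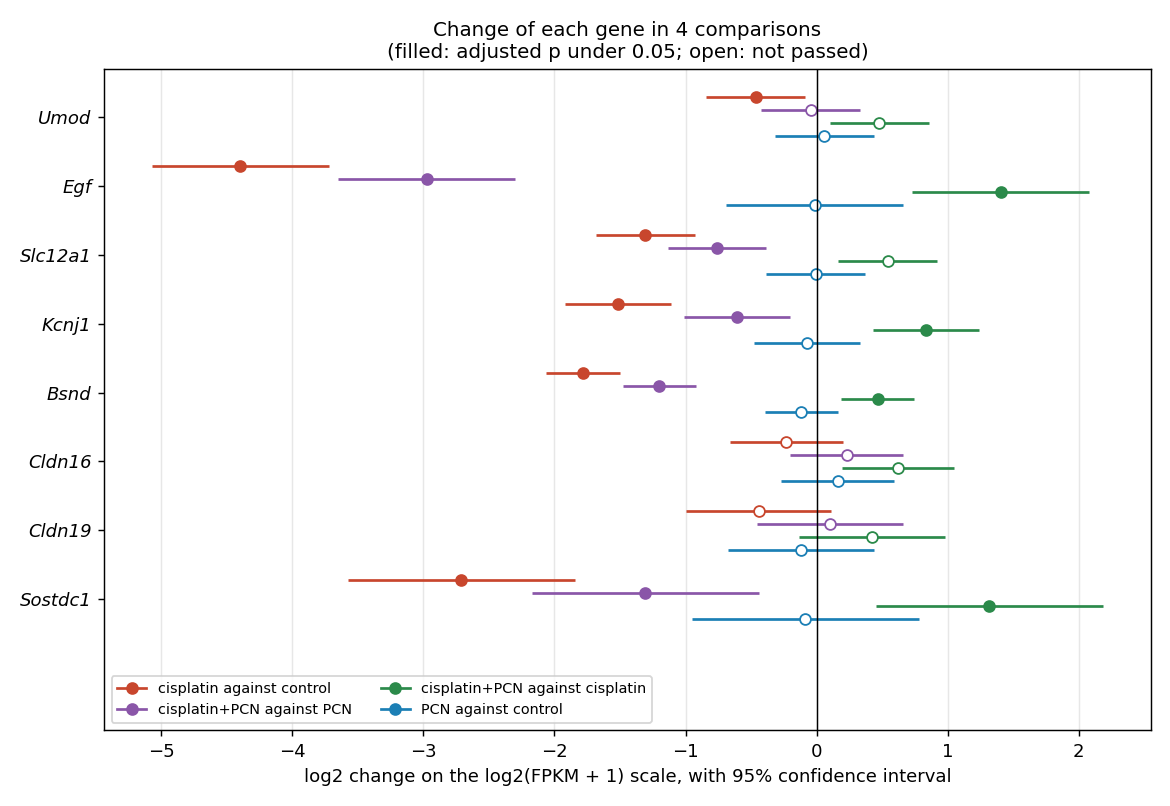
Log2 change of each gene on the log2(FPKM + 1) scale (horizontal axis) in 4 comparisons, with 95% confidence intervals from limma; filled points passed at an adjusted p under 0.05 and open points did not. Egf shows the largest fall of the 8 (-4.40) and Cldn16 the smallest difference (-0.23) with cisplatin, and all PCN differences lie between -0.12 and 0.16.

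The libraries given cisplatin differed among themselves, and did so by gene. Among cisplatin libraries replicate 2 was the highest for 6 of the 8 genes and replicate 3 the lowest for the same 6, whereas Umod and Egf were highest in replicate 3 and lowest in replicate 1. Among cisplatin+PCN libraries replicate 1 was highest for Umod, Egf, Slc12a1 and Cldn16 and lowest for Bsnd, Cldn19 and Sostdc1. That library also had the lowest level of Havcr1, which encodes the injury marker kidney injury molecule, at 22.8 FPKM against 321 and 262 in replicates 2 and 3, and the highest of the proximal phosphate transporter gene Slc34a1, at 239 against 62.1 and 166. Lcn2, another tubular injury gene, did not set it apart from replicate 3, at 384, 696 and 384 FPKM in cisplatin+PCN replicates 1, 2 and 3. Among cisplatin libraries Havcr1 stood at 232, 493 and 297 FPKM, against 0.484 to 0.810 in control.

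Other genes of the segment were taken from lists. Beside every list count with cisplatin, here and below, stand 31.9% of all genes called lower and 32% called higher. Of 8 further transport genes, all tested, 5 fell with cisplatin, 1 rose (Slc4a7, 0.46) and 2 did not pass. Those that fell included Fxyd2, a regulator of the sodium pump (-1.22), Kcnj16, a basolateral potassium channel subunit (-1.09), and Atp1b1, a subunit of the sodium pump that the whole nephron uses (-0.48). The list's median was -0.34. Of 5 tested paracellular genes (6 listed) 2 fell and 3 rose. Tmem207, expressed in this part of the nephron, fell by 1.89 and Cldn10, the claudin of its sodium pathway, by 0.86, while Cldn3 rose from 9.31 ± 0.822 to 51.6 ± 6.25 FPKM. Cldn14, whose product blocks the pore formed by the claudins of Cldn16 and Cldn19, did not reach the expression minimum, with 0.0150 ± 0.0130 FPKM in control, 0.258 ± 0.159 with cisplatin and 0.778 ± 0.208 with cisplatin+PCN.

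Regulators fell in 6 of 10 tested cases (12 listed), where 31.9% of all genes were called lower. They rose in 2, Maged2 (0.69) and Oxsr1 (0.21), where 32% of all genes were called higher. Casr, the calcium-sensing receptor that governs Cldn14 and salt transport in this segment, fell from 11.5 ± 0.308 to 2.10 ± 0.641 FPKM with cisplatin (-2.03) and was higher with cisplatin+PCN (4.44 ± 1.20 FPKM, limma adjusted p = 0.0120). Pth1r, the parathyroid hormone receptor, which is also abundant in the proximal tubule, changed by -1.96, Ptger3, a prostaglandin E receptor, by -1.69, and the kinase genes Wnk1 and Wnk4 by -1.32 and -1.02. Stk39, the kinase that phosphorylates the cotransporter, did not pass (-0.03, adjusted p = 0.816 in limma's test), nor did Hpn, the protease hepsin that releases uromodulin (-0.36, 0.0786).

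Transcription factor genes fell in 6 of 10 cases, rose in 1 and did not pass in 3 (31.9% of all genes called lower, 32% higher). Irx1 fell from 26.2 ± 2.91 to 12.7 ± 1.46 FPKM, Pou3f3, needed for development of the loop of Henle, changed by -0.83, Tfap2b by -0.99, and Esrrg, an estrogen-related receptor, by -1.06. Irx2 (-0.03, limma adjusted p = 0.788) and Esrrb (-0.21, 0.271) were among those that did not pass. Pax8 was the 1 that rose (0.77). All 3 tested of 4 further enriched transcripts fell, Wfdc15b from 279 ± 35.8 to 59.8 ± 6.18 FPKM, Ppp1r1a by -1.43 and Tmem72 by -0.68. With cisplatin+PCN against cisplatin, genes called higher and lower numbered 4 and 0 of 8 for transport, 1 and 1 of 5 for paracellular genes, 5 and 0 of 10 for regulators, 5 and 1 of 10 for transcription factors, and 2 and 0 of 3 for the enriched transcripts. Over all genes, 7.97% were called higher and 7.61% lower in that comparison.

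**Figure D4:**
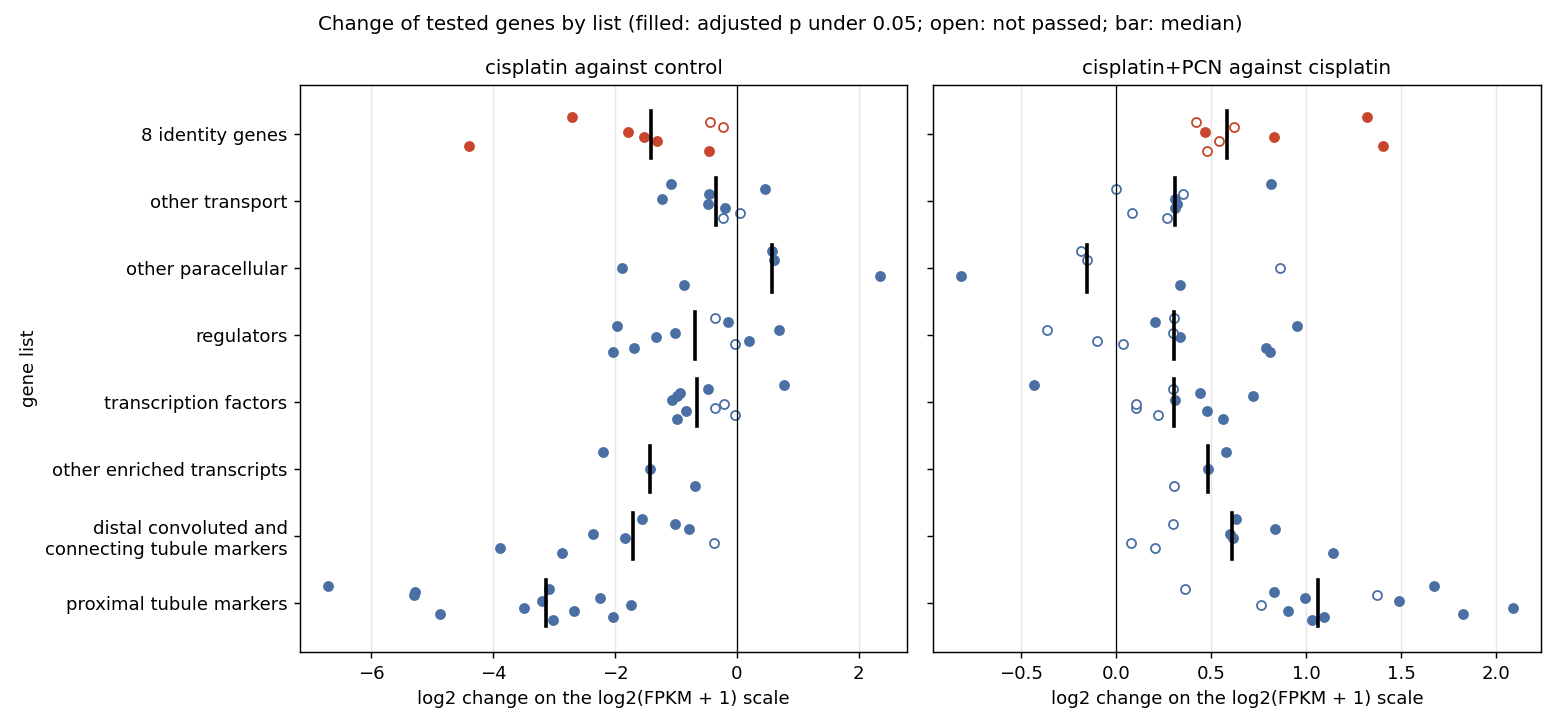
Log2 change on the log2(FPKM + 1) scale (horizontal axes) of each tested gene by list (rows), for cisplatin against control on the left and cisplatin+PCN against cisplatin on the right, with a bar for the median of the list. The medians with cisplatin were -1.41 for the 8 identity genes, -1.70 for distal convoluted and connecting tubule markers and -3.14 for proximal tubule markers.

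Markers of neighbouring segments moved with cisplatin as well. Of 12 proximal tubule markers 12 fell (median -3.14), their summed level going from 28948 to 34008 FPKM over the control libraries to 3246 to 3748 with cisplatin and 3244 to 8575 with cisplatin+PCN. Of 8 distal convoluted and connecting tubule markers 7 fell (median -1.70; Pvalb passed the minimum only through libraries without cisplatin), from sums of 228 to 312 FPKM to 59.2 to 74.6, and 99.1 to 108 with cisplatin+PCN. Collecting duct markers split into 5 lower and 2 higher of 11 tested (sums 543 to 642, 448 to 569 and 630 to 803 FPKM in the same order). Thin limb markers, 5 in all, had a median of 0.89. Aqp1 fell there by 1.41, whereas Slc14a2 (0.80), Bst1 (1.88), Cldn4 (3.17) and Cryab (0.89) rose. The sum of the 8 identity genes, most of it Umod, went from 1621 to 1987 FPKM in control to 846 to 1254 with cisplatin and 1436 to 1798 with cisplatin+PCN. Differences between these lists were not tested.

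Markers of other cell types also differed between groups. Leukocyte markers rose in 3 of 6 tested cases (10 listed) and fell in 1, S100a8 among the 3 having passed the expression minimum through libraries given cisplatin, which favours a rise, with sums of 36.0 to 62.7 FPKM in control, 63.1 to 79.6 with cisplatin and 30.5 to 70.3 with cisplatin+PCN, with Cd3e among those at 0 in some libraries. Of 6 fibroblast markers 4 rose, with sums of 30.3 to 53.6, 66.9 to 76.5 and 40.6 to 61.4 FPKM in those groups. All 5 erythroid markers fell, having passed the minimum through libraries without cisplatin, which favours a fall, with sums of 318 to 1187, 0.472 to 6.94 and 0.198 to 0.638 FPKM. Reads from mitochondrial DNA took 8.78% to 10.0% of assigned reads without cisplatin and 6.12% to 7.81% with it. The part of these shifts in the values of the 8 genes was not tested.

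For each member the 3 tested genes with the most similar profile were sought, by the root mean square difference of log2(FPKM + 1), less its control mean, over the 12 libraries. Among the members themselves Slc12a1 and Kcnj1 were the closest pair (0.24 log2 units), then Umod and Cldn16 (0.32), and Egf and Cldn16 the farthest apart (2.70). Outside the set, Mturn (0.09), Fggy (0.13) and Hgd (0.13) lay nearest to Slc12a1, and C330018D20Rik (0.08), Gtf2i (0.09) and Bcs1l (0.12) nearest to Kcnj1. Ddo (0.12), Plekha6 (0.13) and Crocc (0.13) lay nearest to Bsnd, and 0610043K17Rik (0.12), Dync2li1 (0.15) and Mfsd7a (0.15) to Umod. Egf had no neighbour closer than 0.27, its nearest being Mep1b, Akr1c21 and Slc22a30, and Sostdc1 none closer than 0.23, its nearest being Mtfp1. Cldn16 was nearest to Col27a1 (0.16) and Cldn19 to Pomk (0.15). With 13532 genes compared and large changes shared by many, such likeness describes profiles only.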

How the data were processed

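Kidney RNA libraries, grouped by their titles, were read from a table of FPKM that the authors deposited. HISAT2 2.0.5, featureCounts 1.5.0-p3, DESeq2 1.16.1 and edgeR 3.18.1 are listed without settings or roles in the submitters' processing notes. These notes name build mm8, but 52403 of 52636 gene identifiers are in GENCODE M21 (GRCm38) and 95.2% of those have the same coordinates. Strand use in counting was not given in the sources used here.

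Deposited FPKM multiplied by the table's gene length fell on multiples of 1 step in each library (100% of nonzero values within 0.001), which are 18914607 to 26530485 assigned reads. An FPKM of 1 is 18.7 to 27.2 reads per kilobase. Median-of-ratios rescaling changed no count of calls and no smallest adjusted p-value in any comparison. It left the values in effect as they were, so it was no separate check. Replicates exceeded sampling noise in every pair, at a chi-square of 4.97 to 78.7 for each gene on average, and none was merged.

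limma 3.58.1 (R 4.3.3) with an intensity trend was fitted to log2(FPKM + 1) for 13540 genes, over all 12 libraries, and 6 comparisons were each adjusted by Benjamini-Hochberg with a threshold of 0.05. This scale understates changes of low genes. Median within-group SD was 0.0755 to 0.0861 without and 0.129 to 0.140 with cisplatin. The fits were tested on simulated data. The members and gene lists were chosen with earlier results of these data known. All 8 members are named, lists are counted whole (some of their genes, and a planned motif search, are not reported here by name), and likeness names the 3 nearest genes. The alternatives tried were other pseudocounts (0.1, 0.5), leaving out the filter, requiring a mean of 5 FPKM, 3 rescalings, fewer groups, array weights, a replicate block, limma-voom and leaving out each library.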

Additional observations from a re-analysis of the deposited data

How the results depend on the processing

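The count of the 8 genes called with cisplatin stayed at 5 to 7 under every alternative, with cisplatin+PCN against PCN at 4 to 5 and against control at 5 to 6, and 6 of 7 ratios to Slc12a1 passed, or 5 to 6 as single libraries were left out. The share of all genes that would pass the ratio test was not computed. No called direction turned. For cisplatin+PCN against cisplatin the 8 genes gave 2 calls with no expression minimum, 0 with only the groups compared, 8 with array weights and 0 to 7 as single libraries were left out. All genes gave 1008, 1 and 6862 calls there, and 530 to 3365 with libraries left out, against 2110. For the interaction 7 of the 8 genes passed with array weights and 0 to 3 with libraries left out, and all genes gave 30 calls at a mean FPKM of at least 5, 4315 with array weights, 68 by limma-voom and 9 to 1057 with libraries left out, against 15. A mean FPKM of at least 5 left 5197 calls of all genes for cisplatin against control, 4031 for cisplatin+PCN against PCN and 4000 against control, since fewer genes were tested. Array weights gave 9555 for cisplatin+PCN against PCN, and no filter gave 2 for PCN against control. The estimation of the array weights stopped short of its convergence tolerance, so these counts are less certain. The cause of the other shifts was not tested. Rescaling that left aside mitochondrial genes and the 50 most abundant split the calls for cisplatin+PCN against cisplatin into 1257 higher and 682 lower, against 1079 and 1031, and those of the interaction into 17 and 5, against 10 and 5. limma-voom moved the median of all genes to 0.10 for cisplatin against control, split into 4858 higher and 3646 lower against 4330 and 4319, and to 0.10 for cisplatin+PCN against PCN (3968 and 2437, against 3178 and 3174). Against control it split cisplatin+PCN into 3774 and 2495, against 3110 and 3198. Of 1215 single values, 51 lost and 34 gained a call.

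No consistent pairing of the libraries by replicate number was seen. Deviations of libraries with the same number correlated at -0.28 to 0.37, over 0.1 in 4 of 18 pairs (4 of 36 with other numbers). A library correlated best with its own number in 10 of 36 cases. Deviations were taken from means of 3 libraries, so these correlations cannot exclude a pairing. With the replicate block the counts of the 8 genes stayed at 6, 0, 4, 5, 5 and 0 in the 6 comparisons, and all genes gave 8455 calls where cisplatin was set against control and 1675 where cisplatin+PCN was set against cisplatin. With that block Bsnd lost (0.0511) and Cldn16 gained (0.0468) the call in the latter. The interaction has no value with only the groups compared, since it uses all of them.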

Other observations

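Genes that receive or act beside the signals of Egf and Sostdc1 moved in both directions with cisplatin. Of 17 such genes, all tested, 7 rose with cisplatin, 3 fell and 7 did not pass in limma's test, with a median of 0.24. Over all genes 32% were called higher and 31.9% lower, and Slc41a3, counted among the 7, passed the expression minimum through libraries given cisplatin, which favours a rise. Egfr, the receptor of epidermal growth factor, rose from 5.18 ± 0.695 to 7.27 ± 0.255 FPKM while its ligand's transcript fell. Trpm6, the magnesium channel gene that the ligand is known to stimulate, went from 2.34 ± 0.266 to 1.64 ± 0.776 FPKM (log2 change -0.37, limma adjusted p = 0.0710). Bmp7, a ligand that the Sostdc1 product antagonises, fell from 13.05 ± 0.427 to 7.57 ± 0.614 FPKM. Bmp4, another BMP gene of the list, went the other way (log2 change 0.50, limma adjusted p = 0.000504). The BMP receptor genes Bmpr1a (0.40), Bmpr2 (0.35) and Acvr1 (0.50) rose. Of the BMP-responsive genes Id1, Id2 and Id3, none passed with cisplatin, and Id1 (-0.68, adjusted p = 0.0446 in limma's test) and Id3 (-0.96, 0.0168) were lower with cisplatin+PCN than with cisplatin.

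Of 4 genes of the macula densa, the sensor at the end of the segment, 3 were tested and Ptgs2 alone passed, at 0.196 FPKM in control and 1.41 with cisplatin as means (log2 change 0.98, limma adjusted p = 0.00337). It passed the expression minimum through libraries given cisplatin, so a rise was favoured by the filter. Nos1 stood at 0.0931 FPKM in control and 0.0114 with cisplatin, under the minimum.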
